A study of Mus musculus with 4 samples.

Results

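The 9 genes described here are the core of Hedgehog signaling: the ligand Shh, the receptor Ptch1, the signal transducer Smo, the transcription factors Gli1, Gli2 and Gli3, the co-receptors Boc and Gas1, and the ligand-binding antagonist Hhip. They were chosen by name, from what their products do, though with earlier results of these data known, and every one was found on the array. Together they hold 24 of the 45101 probe sets, and they are 9 of the 18193 genes with at least 1 probe set of a single gene symbol. RNA was taken from the mandible and maxilla (called jaw below) and from the brain of WT and FoxO6-/- mice, and 1 Affymetrix Mouse Genome array was hybridised for each of the 4 combinations. FoxO6 is a forkhead transcription factor, and in the FoxO6-/- mice its coding region was replaced by a LacZ reporter and a neomycin resistance cassette, in ES cells derived from C57BL/6 mice. No other allele or agent is given for either genotype. All 4 samples are labelled postnatal day 0, whereas the methods describe the jaw RNA as embryonic. The methods say that RNA of 4 animals was combined for each jaw sample, and in another place that the pooled mutants included null and heterozygous animals, so a FoxO6-/- array cannot be taken with certainty as RNA of null animals alone. No probe set is named for Foxo6, and the genotype labels were therefore not checked against the deleted gene.

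In Hedgehog signaling, a secreted ligand binds Ptch1 and ends its inhibition of Smo, a membrane protein that then gathers in the primary cilium and lets the GLI transcription factors turn on their targets. Gli1, Ptch1 and Hhip are themselves targets in many tissues, so that they serve as readouts of the pathway, while Gli3 acts largely as a repressor when ligand is absent. In the developing face Shh is made by epithelia, including that of the teeth and palate, and signals to the underlying mesenchyme; in the brain it patterns the ventral neural tube and drives division of cerebellar granule cell precursors.

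The promoters of Ptch1 and Hhip are shown because both genes are textbook GLI targets whose products restrain the pathway, and because both had higher signals in jaw than in brain in the 2 genotypes. The sequences are the 250 bases before the annotated start in RefSeq (GRCm38.p6), read 5′ to 3′ on the gene's strand. Ptch1 lies on the minus strand, at chr13:63565736-63565985. Hhip lies on the minus strand, at chr8:80058009-80058258. Capitals mark the stretches closest to the GLI consensus GACCACCCA, searched on both strands; marked stretches can overlap.
Ptch1: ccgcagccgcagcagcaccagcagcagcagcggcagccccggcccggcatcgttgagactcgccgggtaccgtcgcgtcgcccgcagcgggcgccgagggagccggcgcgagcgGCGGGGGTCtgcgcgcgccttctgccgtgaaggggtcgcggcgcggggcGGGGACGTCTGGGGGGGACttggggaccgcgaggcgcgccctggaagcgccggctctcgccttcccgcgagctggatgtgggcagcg
Hhip: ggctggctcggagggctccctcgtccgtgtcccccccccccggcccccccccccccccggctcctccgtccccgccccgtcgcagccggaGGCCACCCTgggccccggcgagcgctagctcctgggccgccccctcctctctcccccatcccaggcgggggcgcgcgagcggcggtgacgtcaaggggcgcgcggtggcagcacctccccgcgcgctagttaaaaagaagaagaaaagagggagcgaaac

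In Ptch1 the 4 closest stretches differed from the consensus at 3 bases, and lay between 77 and 136 bases before the start. In Hhip 1 stretch differed at 2 bases, 160 bases before the start. A stretch with at most 2 mismatches was present in 51.8% of all such windows of 250 bases. Both windows were rich in G and C, with 78.4% GC and 41 CpG for Ptch1 and 76% GC and 28 CpG for Hhip, against a median of 52.4% GC over all windows. Of the 9 genes 6 had a promoter in the reference table (Gas1, Gli2, Gli3, Hhip, Ptch1 and Smo). None of these 6 windows of 300 bases held the whole GLI consensus, which was in 0.253% of 32851 promoters, or the consensus with at most 1 mismatch (6.74%). The FoxO core GTAAACA, searched on both strands, was absent from the 6 windows and present in 3.65% of promoters.

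Signals are MAS5 values, linear brightness scaled so that the trimmed mean of each array was 500. A gene was read from its brightest probe set, and entered a comparison where the mean of the 2 signals reached 101, the median of all signals (called the floor); a ratio of 2-fold or more was counted as a difference. With 1 array per group there is no replicate spread and no test of a single comparison. Where several probe sets of a gene reached the floor, the log2 ratios of 2 of them were compared, over all such genes. The SD of their difference was 0.569 and 0.704 for jaw over brain (WT and FoxO6-/-), and 0.415 and 0.392 for FoxO6-/- over WT (jaw and brain). These SDs are a scale for the ratios below, not an error of the biology. A higher signal can come from more cells of a type or from more RNA per cell, and the 2 cannot be told apart in bulk tissue.

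The tissue labels were read against marker genes. The summed signal of 12 nerve and brain markers was 60099 and 75720 in WT and FoxO6-/- brain and 6669 and 4432 in WT and FoxO6-/- jaw. Enamel and dental epithelium markers summed to 7813 and 11509 in the jaw arrays and to 131 and 385 in the brain arrays, where at most 1 of 8 reached the floor. The brain arrays also carried markers of non-neural tissue: all 12 skeletal muscle genes reached the floor on both (sums of 109065 in WT and 89072 in FoxO6-/- brain, against 188944 and 208823 in jaw), 13 or more of 14 cartilage genes reached it on every array, and skin and oral epithelium genes summed to 31560 and 43803. The signals of the samples labelled brain were thus not those of neural tissue alone, and the part of this in the values below was not tested. The FoxO6-/- jaw array had a 3′ to 5′ signal ratio of 3.37 for Actb, against 2.21 to 2.23 on the other arrays, and of 1.95 for Gapdh, against 1.44 to 1.55.

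Jaw against brain compares the tissue in which the face and teeth form with the brain of the same genotype. All 9 Hedgehog genes had higher signals in jaw than in brain, in WT and again in FoxO6-/-, and for each of them both jaw arrays lay above both brain arrays. Such separation was seen in 36.4% of all 12569 genes. In WT the log2 ratio ran from 0.51 for Ptch1 to 1.78 for Shh, with a median of 0.74, against a median of 0.05 over all 12573 genes and an interquartile range of -0.32 to 0.39. In FoxO6-/- it ran from 0.15 for Boc to 0.96 for Shh, with a median of 0.53, against 0.06 and a range of -0.38 to 0.41. A ratio above 0 was found in 54.4% of all genes in WT and in 54.2% in FoxO6-/-. Of the 9 genes 2, Shh and Boc, were 2-fold or more higher in WT jaw, where 8.45% of all genes were (9.8% were 2-fold or more higher in brain). None of the 9 was in FoxO6-/-, where 7.85% were higher in jaw and 11.8% higher in brain.

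**Figure D1:**
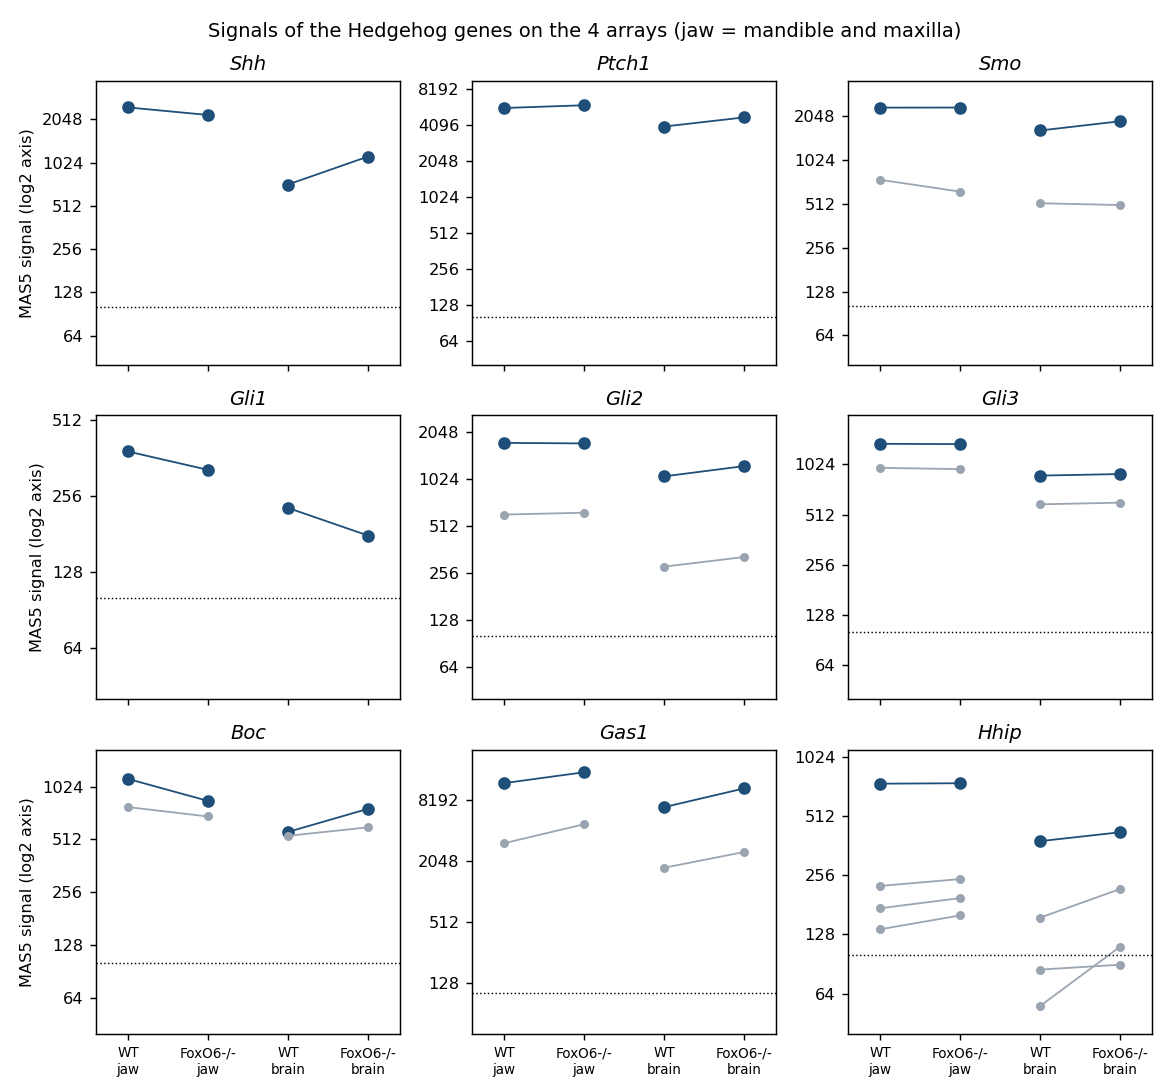
MAS5 signal (log2 axis) of each Hedgehog gene on the 4 arrays. Dark points are the brightest probe set, grey points the other probe sets whose mean over the 4 arrays reached the floor (dotted line, 101), and lines join the genotypes of a tissue; for all 9 genes the dark points of both jaw arrays lie above those of both brain arrays.

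Shh, the only ligand among the 9, had the widest gap between the tissues. Its signal was 2479 in WT jaw, 2196 in FoxO6-/- jaw, 721 in WT brain and 1128 in FoxO6-/- brain. The jaw arrays were close to each other and the brain arrays were both lower, with WT brain the lowest of all. Jaw exceeded brain 3.44-fold in WT and 1.95-fold in FoxO6-/-. The values come from 1 probe set, since the other one for Shh was below the floor on all 4 arrays (3.18 to 22.3).

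Ptch1, which holds Smo inactive until ligand binds it, had a signal of 5647 in WT jaw, 5957 in FoxO6-/- jaw, 3953 in WT brain and 4714 in FoxO6-/- brain. The gap between the tissues was among the smallest of the 9 genes, 1.43-fold in WT and 1.26-fold in FoxO6-/-. A dim second probe set of Ptch1 read 170 in WT jaw, 144 in FoxO6-/- jaw, 51.2 in WT brain and 5.03 in FoxO6-/- brain, higher in jaw as well.

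Smo, the transducer that Ptch1 restrains, had 2344 in WT jaw, 2346 in FoxO6-/- jaw, 1633 in WT brain and 1890 in FoxO6-/- brain. Jaw was 1.44-fold and 1.24-fold above brain in WT and FoxO6-/-. The second probe set at the floor gave log2 ratios of 0.54 and 0.31, close to the 0.52 and 0.31 of the brightest one.

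Hhip, a membrane protein that binds Hedgehog ligands and keeps them from Ptch1, had 749 in WT jaw, 753 in FoxO6-/- jaw, 382 in WT brain and 424 in FoxO6-/- brain. The signals fell into a jaw level and a brain level, and genotype moved neither by much. Jaw exceeded brain 1.96-fold in WT and 1.78-fold in FoxO6-/-. In WT 2 further Hhip probe sets that entered the comparison were also higher in jaw, with log2 ratios of 0.53 and 1.04, and in FoxO6-/- 3 further ones were, with 0.17, 0.53 and 1.13. The probe set at 1.04 and 1.13 was below the floor in WT and FoxO6-/- brain (84.8 and 89.8), and entered through its jaw signal.

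Boc and Gas1 are cell-surface proteins that bind Shh together with Ptch1 and help the cell respond to it. Boc had 1133 in WT jaw, 849 in FoxO6-/- jaw, 565 in WT brain and 765 in FoxO6-/- brain. The FoxO6-/- arrays thus lay between the WT arrays, and the gap between tissues was 2.01-fold in WT but 1.11-fold in FoxO6-/-. The second Boc probe set gave the same order with a smaller gap in WT, a log2 ratio of 0.54 against 1.0, so that its place among the 2-fold genes rested on 1 probe set. Gas1 had 12018 in WT jaw, 15394 in FoxO6-/- jaw, 6955 in WT brain and 10660 in FoxO6-/- brain. Both tissues were higher in FoxO6-/- than in WT, and jaw exceeded brain 1.73-fold and 1.44-fold. Its second probe set at the floor gave log2 ratios of 0.81 in WT and 0.91 in FoxO6-/-.

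The 3 GLI factors carry the signal to the genome. Gli1, an activator whose own transcription follows pathway activity, had 383 in WT jaw, 324 in FoxO6-/- jaw, 229 in WT brain and 178 in FoxO6-/- brain, from the 1 probe set named for it. In both tissues the FoxO6-/- array was the lower one. Jaw exceeded brain 1.67-fold in WT and 1.82-fold in FoxO6-/-. By the brightest probe sets, Gli1 was the only one of the 9 genes with a larger gap in FoxO6-/- than in WT.

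Gli2, the main activator that responds first to the signal, had 1743 in WT jaw, 1729 in FoxO6-/- jaw, 1065 in WT brain and 1238 in FoxO6-/- brain. Gli3, which is cut to a repressor without ligand, had 1360 in WT jaw, 1354 in FoxO6-/- jaw, 877 in WT brain and 896 in FoxO6-/- brain. For both genes the 2 jaw arrays were almost level. Jaw exceeded brain 1.64-fold and 1.40-fold for Gli2, and 1.55-fold and 1.51-fold for Gli3, in WT and FoxO6-/-. A second probe set of each was also higher in jaw, with log2 ratios of 1.11 and 0.94 for Gli2 and 0.73 and 0.67 for Gli3. Over all 9 genes, every one of the 17 probe sets that entered the comparison in WT was higher in jaw, 5 of them 2-fold or more. In FoxO6-/- every one of 17 was higher in jaw, 1 of them 2-fold or more. Of those at 2-fold, the second probe set of Ptch1 (170 in WT jaw, 51.2 in WT brain) was below the floor in brain and entered through its jaw signal. So did an Hhip probe set, in WT (174 and 84.8) and in FoxO6-/- (196 and 89.8). Probe sets of a gene share the RNA, and no share over all probe sets is given.

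**Figure D2:**
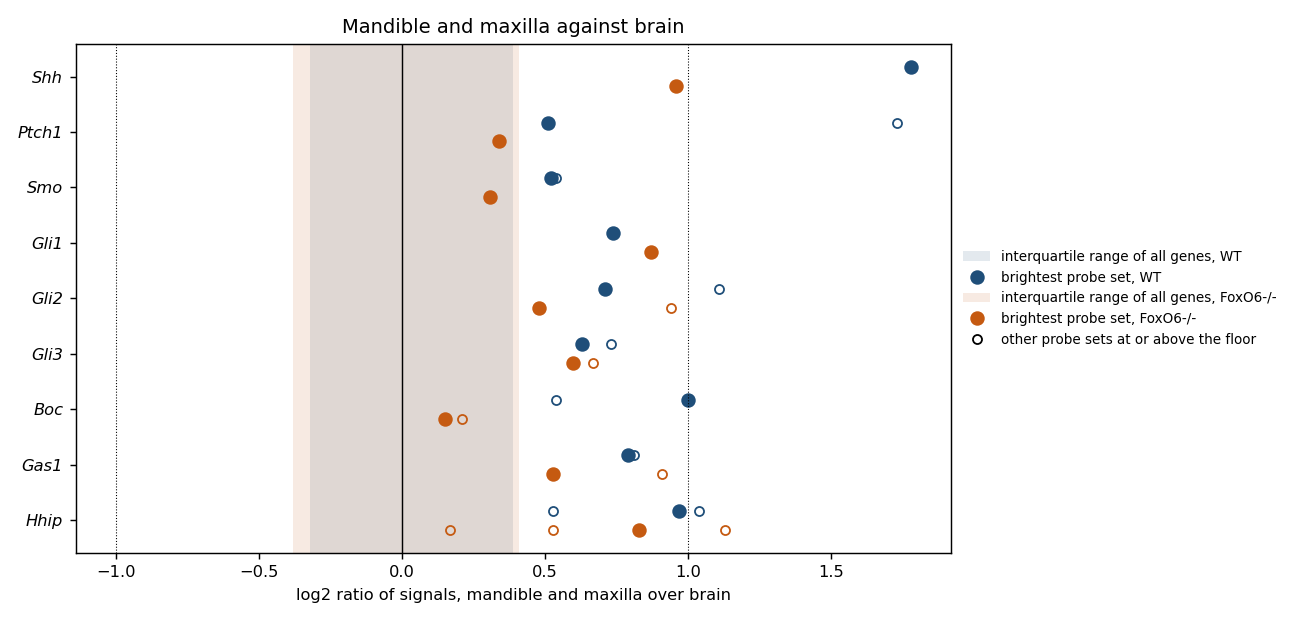
Log2 ratio of signals, jaw over brain, for the 9 Hedgehog genes in WT and FoxO6-/-; filled points are the brightest probe set, open points other probe sets that entered the comparison, shaded bands the interquartile range of all genes and dotted lines 2-fold. All points lie to the right of 0, and the filled points of Shh and Boc are the ones at or past 2-fold, both in WT.

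A limma fit with tissue and genotype as terms, which uses the 2 genotypes as repeats of the tissue difference and leaves 1 residual degree of freedom, called 1 of the 9 genes. This was Hhip, at 0.90 on the log2 scale (SE 0.15, Benjamini-Hochberg limma adjusted p = 0.0463, higher in jaw in both genotypes). Gli1 followed at 0.80 (SE 0.15, limma adjusted p = 0.0553) and Shh at 1.37 (SE 0.27, limma adjusted p = 0.0592). The other 6 genes had limma adjusted p-values between 0.0845 for Gli3 and 0.247 for Boc, with estimates of 0.42 for Smo to 0.66 for Gas1. Over all genes the fit called 6.48% higher in jaw and 8.73% higher in brain. Thus the gene with the widest gap, Shh, did not pass, and its ratio was also the one, beside that of Boc, that differed most between the genotypes. The call of Hhip was lost in 4 of the alternatives tried, and its limma adjusted p ran from 0.0178 to 0.185 over all of them; that of Shh ran from 0.0156 to 0.327 and passed in 3.

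FoxO6-/- against WT asks what changes with the loss of FoxO6, and was read within each tissue. In jaw the Hedgehog genes stayed close to their WT signals: 4 of 9 were higher (Smo by 2346 against 2344) and 5 lower, the log2 ratios ran from -0.42 for Boc to 0.36 for Gas1, and their median was -0.01, equal to that of all 12186 genes. With the arrays centred on their medians Gli2 and Gli3 also came out higher, 6 of 9 in all, where 66.1% of all genes were higher. In the signals as deposited none of the 9 reached 2-fold, as 2.28% of all genes did, and 48.7% of all genes had a ratio above 0. In brain 8 of 9 were higher in FoxO6-/-, where 57.3% of all genes were, with a median of 0.22 against 0.05 over all 12327 genes. It was 7 of 9 with gene-specific probe sets (57.5% of all genes), where Smo turned. When all probe sets of a gene were averaged it was 4 of the 7 genes read (52.4% of all genes). By the brightest probe sets the ratios of the 9 genes ran from -0.37 for Gli1 to 0.65 for Shh, and none reached 2-fold, as 3.16% of all genes did. At a limit of 1.5-fold, added after the values were seen, Shh and Gas1 were higher in FoxO6-/- brain, 2 of 9 genes against 4.05% of all genes.

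Shh signal was 1.13-fold lower in FoxO6-/- than in WT jaw (2196 against 2479) and 1.56-fold higher in FoxO6-/- than in WT brain (1128 against 721). Both differences rest on a single probe set and a single pair of arrays. Boc had the same directions, 1.34-fold lower in jaw and 1.35-fold higher in brain, and its second probe set had the same signs with smaller log2 ratios, -0.18 and 0.16. Gas1 was higher in FoxO6-/- in both tissues, 1.28-fold in jaw and 1.53-fold in brain. Its second probe set gave log2 ratios of 0.62 and 0.52, and Gas1 had the highest ratio of the 9 genes in jaw, but averaging in its probe set below the floor gave -0.67 there and 1.03 in brain.

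Gli1 was lower in FoxO6-/- in both tissues, 1.18-fold in jaw and 1.29-fold in brain. Ptch1, the other common readout of the pathway, did not follow it: its log2 ratios were 0.08 in jaw and 0.25 in brain. Hhip had 0.01 and 0.15. The dim second probe set of Ptch1, at -0.24 in jaw, had the opposite sign to the brightest one there. For Smo (0.00 and 0.21), Gli2 (-0.01 and 0.22) and Gli3 (-0.01 and 0.03) the jaw ratios were within 0.01 of 0 on the log2 scale. The second probe set of Smo gave -0.27 in jaw and -0.04 in brain, so the direction of Smo differed between its probe sets in brain.

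Over all probe sets of the 9 genes that entered a comparison, 8 were higher, 9 lower and 1 (the brightest of Smo, counted as higher above) at 0.00 after rounding of 18 in jaw, with log2 ratios of -0.42 to 0.62, and 13 were higher and 2 lower of 15 in brain, with ratios of -0.37 to 0.65. The probe sets of a gene share the RNA and are not replicates. Most of these ratios are smaller than 0.415 and 0.392, the SD of the difference between 2 probe sets of a gene.

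**Figure D3:**
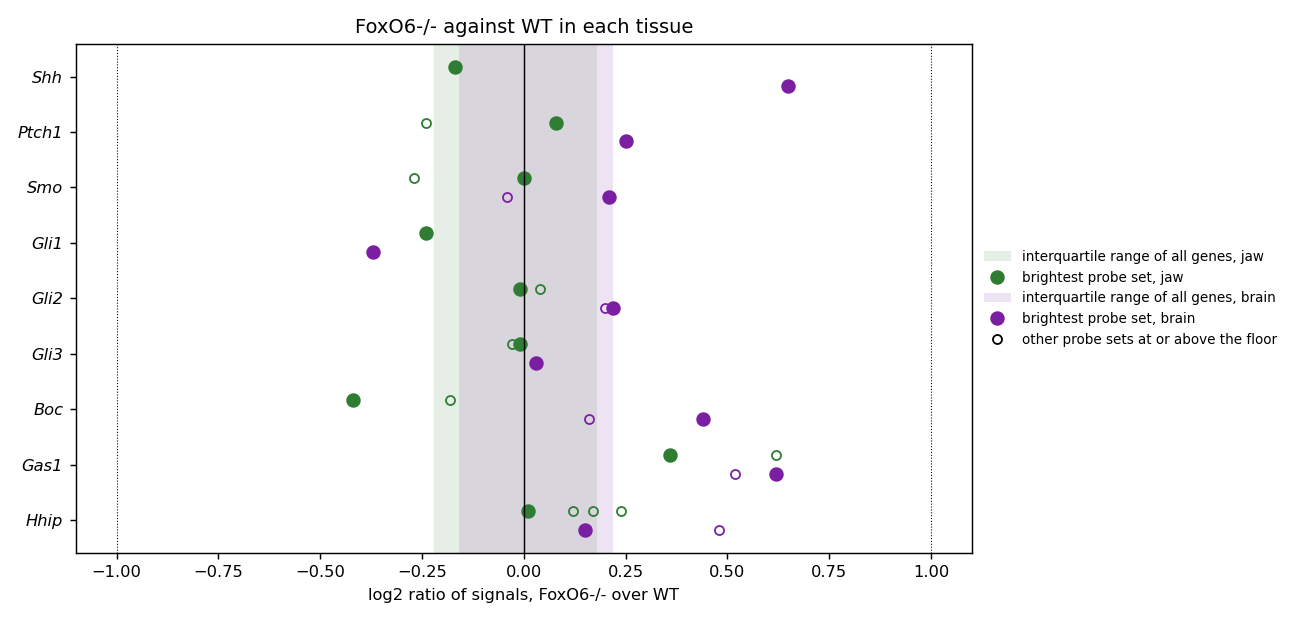
Log2 ratio of signals, FoxO6-/- over WT, for the 9 Hedgehog genes in jaw and in brain; filled points are the brightest probe set, open points other probe sets that entered the comparison, shaded bands the interquartile range of all genes and dotted lines 2-fold. No point reaches 2-fold, and in brain the filled points lie above 0 for all genes but Gli1.

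The limma fit of genotype over both tissues called none of the 9 genes and none of 12569 genes (0%; smallest limma adjusted p = 0.902), with 588 genes at an unadjusted p under 0.05. Of the 9 genes 1 was among these, Gas1, at 0.49 on the log2 scale (SE 0.16, an unadjusted limma p of 0.049, limma adjusted p = 0.902, higher in FoxO6-/- in both tissues). Gli1 was at -0.30 (SE 0.15, limma adjusted p = 0.902, lower in both tissues) and Shh at 0.24 (SE 0.27, limma adjusted p = 0.913), a mean of opposite signs.

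The genotype ratio was higher in brain than in jaw for 8 of the 9 genes, all but Gli1, where 53.5% of all 11494 genes read in both tissues had this direction. The median difference was 0.21 on the log2 scale for the 9 genes and 0.03 for all genes. It was 0.85 for Boc and 0.82 for Shh, and between 0.04 and 0.26 for the other 6 genes in which it was positive. The difference equals the tissue gap in WT minus that in FoxO6-/-, so it restates the narrower gap given above and is not a second result. It depended on the probe sets: the second one of Gas1 gave genotype ratios of 0.62 in jaw and 0.52 in brain. With all probe sets averaged the direction turned for Gli3 (1.3 in jaw, -0.36 in brain) and Smo (0.14 and -1.52), while Gas1 kept it (-0.67 and 1.03). With 1 array per group this difference cannot be tested.

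Marker genes also differed between the same arrays. All 13 cartilage markers read in jaw were lower in FoxO6-/- (median log2 ratio -0.74), and all 14 read in brain were higher (median 0.87). The summed cartilage signal was 58634 in WT jaw, 37416 in FoxO6-/- jaw, 35597 in WT brain and 64058 in FoxO6-/- brain; Col9a1, a cartilage collagen, had 14365 in WT and 9926 in FoxO6-/- jaw, and 8402 in WT and 14736 in FoxO6-/- brain. Nerve and brain markers were lower in FoxO6-/- jaw (11 of 11, median -0.85) and higher in FoxO6-/- brain (12 of 12, median 0.36). Skin and oral epithelium markers were higher in FoxO6-/- in jaw (12 of 12, median 0.47) and in brain (11 of 11, median 0.50), while skeletal muscle markers were mostly lower in brain (11 of 12, median -0.32) and 5 higher and 7 lower in jaw, a split that followed the scaling (0 and 12 after quantile normalization, 9 and 3 after median centring). After either of these scalings 1 nerve marker was higher in jaw, and after quantile normalization 1 skin marker was lower there. Olfactory and respiratory epithelium markers were mostly lower in FoxO6-/- jaw (6 of 7, median -1.04) and higher in FoxO6-/- brain (6 of 6, median 0.48). Enamel and dental epithelium markers were higher in FoxO6-/- jaw (7 of 7, median 0.48), and none was read in brain. Bone matrix markers were mostly higher in jaw (6 of 8) and in brain (5 of 7). Radial glia and astrocyte markers were mostly lower in jaw (4 of 6) and higher in brain (5 of 7), as were those of granule cell precursors (2 of 2 and 3 of 4). Cartilage, nerve and most olfactory and respiratory markers thus had the directions of Shh and Boc, and skin and oral epithelium markers those of Gas1. Enamel markers had the direction opposite to Shh and Boc in jaw. The part of any of these markers in the Hedgehog values was not tested.

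**Figure D4:**
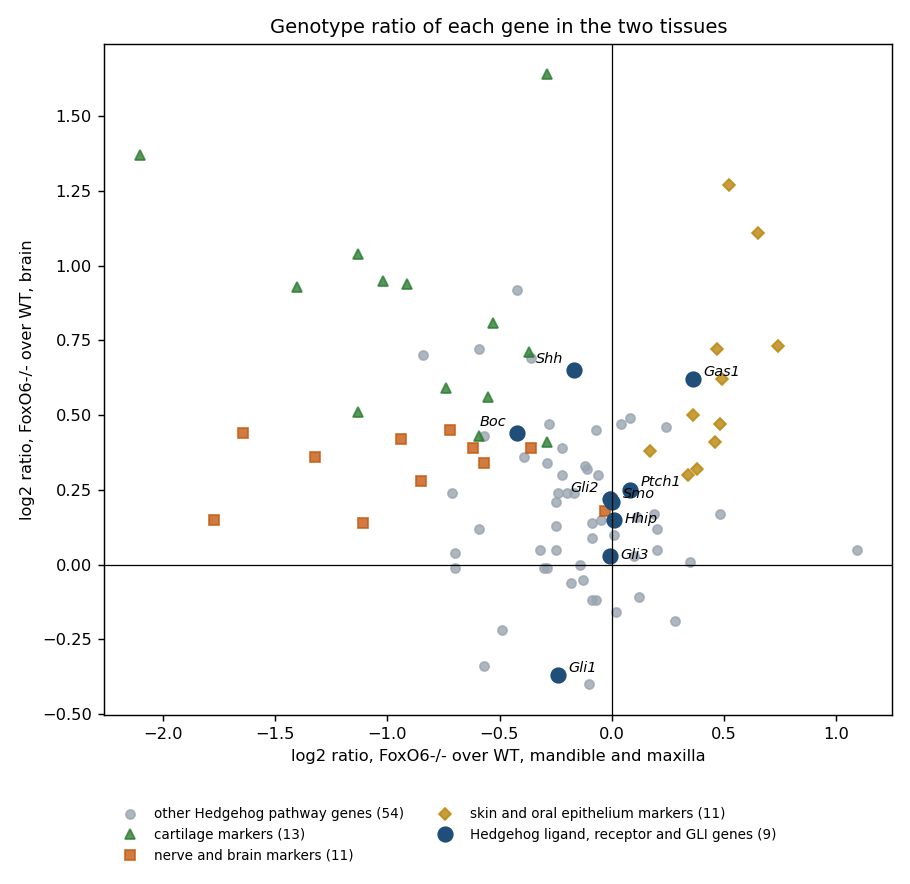
Each point is a gene, placed by its log2 ratio FoxO6-/- over WT in jaw (horizontal axis) and in brain (vertical axis). Of the 9 Hedgehog genes (dark circles), Shh and Boc lie in the upper left with the cartilage and nerve markers, Gas1 in the upper right with the skin and oral epithelium markers and Gli1 in the lower left, while the other 5 have jaw ratios between -0.01 and 0.08.

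The rest of the pathway was read from lists of ligand-release, ligand-binding, transducer, cilium and target genes. Of 69 such genes 66 had a probe set of a single symbol. In WT 43 of the 57 genes measured were higher in jaw and 14 in brain, with a median log2 ratio of 0.35, where 54.4% of all genes were higher in jaw. In FoxO6-/- 28 of 55 were higher in jaw and 27 in brain, with a median of 0.03, near the 54.2% of all genes. After quantile normalization the split in FoxO6-/- was 34 and 22 of 56, where 55.4% of all genes were higher in jaw. The difference between the genotypes was not tested. FoxO6-/- over WT gave 15 higher and 39 lower of 54 in jaw (median -0.14; 48.7% of all genes were higher) and 42 higher and 15 lower of 57 in brain (median 0.14; 57.3% of all genes were higher). The jaw split became 27 and 27, and the brain split 52 and 5, when the arrays were centred on their medians. With that centring 66.1% of all genes were higher in FoxO6-/- jaw and 73.9% in FoxO6-/- brain.

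Of the other genes that make or release ligand, Ihh, the ligand of growth plate cartilage, was below the floor on every array (39.7 to 66.9). Scube3, a secreted protein that helps ligand release, was 2.33-fold higher in jaw than in brain in WT and 1.38-fold in FoxO6-/-, and its genotype log2 ratios, -0.28 in jaw and 0.47 in brain, had the signs of those of Shh. Disp1, which exports the lipid-bearing ligand, was lower in FoxO6-/- in both tissues (-0.57 and -0.34). Hhat, the enzyme that adds palmitate to Hedgehog ligands, was the one pathway gene at 2-fold between genotypes. It was 1 of 54 pathway genes measured in jaw, where 2.28% of all genes reached 2-fold either way. In brain none of 57 did, against 3.16% of all genes. Hhat had 239 in FoxO6-/- jaw and 112 in WT jaw, a 2.13-fold difference, and 113 and 109 in FoxO6-/- and WT brain. All of these signals but that of FoxO6-/- jaw were only just above the floor. The other Hhat probe set was below the floor on all arrays. Scube2 had 133 in WT jaw and 81.8, below the floor, in FoxO6-/- jaw. Dhh had log2 ratios of 0.28 in jaw and -0.19 in brain.

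Cdon, a co-receptor closely related to Boc, resembled it: its jaw over brain log2 ratio was 0.61 in WT and 0.18 in FoxO6-/-, and its genotype ratios were -0.11 in jaw and 0.32 in brain. The glypicans Gpc3 and Gpc4, surface proteoglycans, were higher in jaw with 0.53 and 0.48 in WT and 0.84 and 0.82 in FoxO6-/-. Gpc6 had 0.48 and -0.12. Vtn, an extracellular matrix protein that binds Shh, had 663 in WT brain and 681 in FoxO6-/- brain, and was below the floor in WT and FoxO6-/- jaw (80.1 and 96.3). The fit called it higher in brain (limma adjusted p = 0.00906), and no fold is given because the jaw signals were this dim.

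Between Smo and the GLI factors, Kif7, a kinesin of the cilium tip, was 1.90-fold and 1.42-fold higher in jaw. Sufu, which holds GLI proteins in the cytoplasm, had 0.57 and 0.20 on the log2 scale, and Cul3 and Numb had 0.43 to 0.65. The fit called 3 of the 17 regulators, all higher in brain, where it called 8.73% of all genes: Gpr161, a ciliary receptor that keeps protein kinase A active, at -1.44 (limma adjusted p = 0.0265), Btrc, which marks GLI proteins for processing, at -1.08 (limma adjusted p = 0.0309), and Arrb1 at -0.86 (limma adjusted p = 0.0475). Gsk3b, a kinase that also acts on GLI proteins, was 1.63-fold and 2.27-fold higher in brain (limma adjusted p = 0.0665). Restraining factors of the pathway thus lay on both sides. Of the 17 genes of this list measured in WT, 10 were higher in jaw and 7 in brain, and of 16 in FoxO6-/-, 7 and 9.

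Of the 13 cilium genes 12 were higher in jaw in WT (median log2 ratio 0.55), and 6 in FoxO6-/- (median -0.02; 10 of 13, median 0.05, after quantile normalization). Over all genes the shares were 54.4% and 54.2%, and 55.4% in FoxO6-/- after quantile normalization. Evc and Evc2, which carry the Smo signal at the base of the cilium, were 1.91-fold and 1.77-fold higher in WT jaw and 1.58-fold and 1.61-fold in FoxO6-/- jaw. Tulp3, which brings receptors into the cilium, was 2.09-fold and 1.28-fold higher. Kif3a, a motor subunit needed to build cilia, was higher in brain at -0.93 (SE 0.16, limma adjusted p = 0.0458). In FoxO6-/- jaw 11 of the 13 cilium genes were below WT (median -0.29), where 48.7% of all genes were above it. This became 9 of 13 (median -0.15) with arrays centred on their medians, and 11 of 13 (median -0.18) after quantile normalization. Of all genes 66.1% and 52.4% were above WT in jaw under these 2 scalings. In FoxO6-/- brain 8 of 13 were above WT (median 0.05), where 57.3% of all genes were. It was 12 of 13 with arrays centred on their medians, where 73.9% of all genes were.

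Of the GLI target genes other than Gli1, Ptch1 and Hhip, 14 of 17 were higher in jaw in WT (median 0.70) and 8 of 16 in FoxO6-/- (median 0.11). Of all genes 54.4% and 54.2% were. The fit called 4 of the 16 tested higher in jaw, where it called 6.48% of all genes: Hand2 at 2.38 (limma adjusted p = 0.00973) and Foxf1 at 1.82 (limma adjusted p = 0.0267), transcription factors of facial mesenchyme, with Prdm1 at 1.24 and Cdkn1a at 1.05 (limma adjusted p = 0.0373 for each). Mycn, through which Shh drives granule cell precursors to divide, was higher in brain at -1.38 (limma adjusted p = 0.0295). Pax9, a factor of tooth and palate mesenchyme, was 4.76-fold higher in jaw in WT and 1.92-fold in FoxO6-/- (limma adjusted p = 0.0862). A dim second Pax9 probe set showed less of a gap, with 109 in WT jaw and 95.4 in WT brain. Between genotypes 5 of 16 targets were higher and 11 lower in FoxO6-/- jaw (median -0.23), where 48.7% of all genes were higher. In FoxO6-/- brain 14 were higher and 3 lower (median 0.36), where 57.3% of all genes were higher. With arrays centred on their medians the split was 7 and 9 in jaw (median -0.09) and 17 and 0 in brain (median 0.50), with 66.1% and 73.9% of all genes higher. The widest gap in brain was that of Foxc2, a factor of skeletal mesenchyme, at 1.89-fold. No gene of the lists passed the limma fit of genotype, and none had an unadjusted p under 0.05.

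Gene patterns over the 4 arrays were compared after each gene was centred on its own mean. The genes most like Shh were Dsg2, a desmosomal cadherin of epithelia (root mean square difference 0.0334 on the log2 scale), Cdhr4 (0.0503) and Ifitm1 (0.0565), and 8 of 12568 genes lay within 0.1 of it. Dsg2 had 1903 in WT jaw, 1692 in FoxO6-/- jaw, 582 in WT brain and 905 in FoxO6-/- brain. Like Shh, it was high in both jaw arrays and lowest in WT brain. The pattern of Ptch1 was common, with 552 genes within 0.1, the nearest being Hspa14 (0.00467), Sec24d (0.0149) and Nusap1 (0.0159). That of Gli1 had 80 genes within 0.1, led by Caskin2 (0.0178), Kif1c (0.0308) and Tnnt1 (0.0310). With 4 points per gene such likeness is a description.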

How the data were processed

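The 4 arrays were grouped by the labels' tissue and genotype, 1 array each. Per the methods, the authors hybridised pooled RNA to Affymetrix Mouse Genome 430 2.0 arrays and normalized with MAS5; the deposited values are linear signal intensity per probe set, scaled to a trimmed mean (2% off each end) of 500. The number of arrays limits precision. Gene names came from the platform annotation: of 45101 probe sets 34945 had 1 symbol, 932 several, 9160 none, and 64 were controls.

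A gene was read from its brightest single-symbol probe set by mean of the 4 arrays, with no pseudocount, if the mean of the signals compared reached 101 (the median of all signals). Log2 ratios were counted at 2-fold, and limma 3.58.1 (R 4.3.3) fitted log2 signals on tissue and genotype over 12569 genes with Benjamini-Hochberg adjustment at 0.05, checked first on data with known answers. Python 3.11.15 and pandas 2.3.3 were used for the rest. Alternatives changed the normalization, the floor, the choice of probe set and the limma model.

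All 9 Hedgehog genes were named. Of the other pathway lists the text could name genes at 2-fold between genotypes and the up to 3 highest and 3 lowest per list for jaw over brain; Ihh, Sufu, Arrb1, Prdm1, Cdkn1a, Prkacb and Sfrp1 were named after their values were seen. Up to 2 of the brightest markers per list could be named, and the 3 genes most like Shh, Ptch1 and Gli1. The Hedgehog genes and all lists were chosen with earlier results of these data known.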

Additional observations from a re-analysis of the deposited data

Results flagged for a closer look

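In 2 pathway genes the genotype difference ran in opposite directions in the 2 tissues, by 1.5-fold or more in each. For Sfrp1, a secreted Wnt antagonist listed among GLI targets, the log2 ratio FoxO6-/- over WT was -0.84 in jaw (939 against 1678) and 0.70 in brain (1259 against 774), a difference of 1.54. All 5 Sfrp1 probe sets were lower in FoxO6-/- jaw (-0.63 to -0.87) and higher in FoxO6-/- brain (0.07 to 0.86). For Pax9 the ratio was -0.59 in jaw (332 against 499) and 0.72 in brain (173 against 105), a difference of 1.31, and a second probe set, at the floor in jaw alone, gave 0.25 there. With 1 array per group neither difference was tested. Opposite ratios of this size were found in 129 of 11494 genes, 1.12%, and in 0 of the 9 Hedgehog genes, where Shh (-0.17 and 0.65) and Boc (-0.42 and 0.44) had opposite signs without reaching that size in both tissues.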

How the results depend on the processing

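Apart from the limma fit with genotype as a term, which sets jaw against brain within each genotype, no paired analysis was possible because each group holds 1 array. The number of Hedgehog genes at 2-fold, 2 for jaw over brain in WT, was 1 with median centring and 1 with gene-specific probe sets (Boc 0.54), and 5 when the log2 signals of all probe sets of a gene were averaged. That average, which takes in probe sets below the floor, also gave 2 for jaw over brain in FoxO6-/-, 2 for the genotypes in jaw and 3 in brain, where the main counts were 0, and it turned the jaw over brain ratio of Gli3 in WT (-1.04) and of Gas1 in FoxO6-/- (-0.41). Between genotypes it turned Gas1 (-0.67), Ptch1 (-0.57), Gli2 (0.01) and Gli3 (1.3) in jaw, and Smo (-1.52) and Gli3 (-0.36) in brain. It also turned Prkacb, a pathway kinase gene, from -1.05 to 0.53 for jaw over brain in FoxO6-/-. The limma count for tissue, 1, was 0 with median centring, without a floor, with low signals raised to the floor and under the average over probe sets. Of all genes these settings called 669 of 12568, 0 of 18193, 0 of 18193 and 537 of 10751 higher in jaw. The Hedgehog count was 4 of 8 genes with the floor at the 75th percentile (524), 5 with a variance trend and 3 without the genotype term. Of all genes these called 795 of 7441, 1340 of 12569 and 1212 of 12569 higher in jaw, against 814 of 12569 in the main fit. With every probe set on its own it was 2 of 17, where 1281 of 23057 were called higher in jaw. The adjusted limma p of Hhip in the settings that lost it was 0.0606, 0.185, 0.158 and 0.0921. The limma count for genotype was 0 in every setting. Some settings gave no value for dim genes, such as Gli1 under the floor of 524. Of the ratios of single Hedgehog genes, 230 moved by less than the spread between probe sets and 14 by more, all 14 under the average over probe sets. Median centring moved the median of all genes from -0.01 to 0.13 between genotypes in jaw, and from 0.05 to 0.20 in brain. The share of higher genes among those at 2-fold between genotypes was 25.9% in jaw and 35.7% in brain as deposited, 44.2% and 42.5% after quantile normalization, and 49.2% and 54.2% after median centring. Without replicate arrays, ratios near the spread between probe sets cannot be told from measurement error, and dim signals limit Gli1 and the second probe sets of Ptch1 and Hhip.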
